A study of Mus musculus with 2 samples.

Results

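The nuclei described here are glial nuclei of the mouse vagus nerve ganglia, called satellite glia nuclei below and chosen by their transcripts of *Fabp7*, *Ednrb*, *Kcnj10*, *Lgr5* and *Slc35f1* in sum, most of which were *Slc35f1*. They numbered 1313 of the 8714 nuclei in the data. A nucleus was counted as a member when the UMIs (unique molecular identifiers, each counting 1 captured RNA molecule) of these 5 genes came to at least 4 and to at least 12 per 10000 of its UMIs. The 5-gene sum also had to be no smaller than the sum of *Col28a1*, *Ptprz1*, *Fras1* and *Acsbg1*, the genes of a second glial population, and the myelin genes *Prx*, *Ncmap*, *Dusp15* and *Cldn19* could have no more than 2 UMIs together.

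The study compared the ganglia of female and male mice by single-nucleus RNA sequencing on the 10x Genomics platform. All mice were *Rosa26*-floxed-STOP-Cas9-eGFP animals on the C57BL/6J background, fed standard chow and 8 to 9 weeks old at purchase. Every mouse received AAVrg-Cre, a retrogradely carried virus, in the liver, and its ganglia were taken 4 weeks later, so no group was without the virus. The female library pooled 14 ganglia of 7 mice and the male library 16 ganglia of 8 mice. With 1 library per sex neither sex had a replicate, a sex cannot be told apart from its library, and no test between the sexes was possible. Nuclei of 1 library are not replicates, so no p-value is given, and the 95% intervals below cover counting error only.

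Satellite glia are neural crest-derived cells that wrap the cell bodies of sensory neurons in peripheral ganglia. They are known for taking up potassium through the inwardly rectifying channel Kir4.1, encoded by *Kcnj10*, for clearing neurotransmitters, and for coupling through gap junctions. *Fabp7* encodes a brain-type fatty acid binding protein of glia, *Ednrb* the endothelin receptor type B, *Lgr5* a receptor for R-spondins that strengthens Wnt signalling, and *Slc35f1* a member of a solute carrier family.

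In the mouse genome build GRCm38 (mm10), *Fabp7* lies at chr10:57784881-57788450 on the plus strand, *Slc35f1* at chr10:52690533-53111622 on the plus strand, *Kcnj10* at chr1:172341210-172374085 on the plus strand, *Lgr5* at chr10:115450311-115587780 on the minus strand and *Ednrb* at chr14:103814625-103844402 on the minus strand. All 5 are protein-coding genes. The bases before the start of 3 of them are shown because these genes chose the members, read 5′ to 3′ on the plus strand from the RefSeq promoter windows of GRCm38.p6. The windows are chr10:57784673-57784880 for *Fabp7*, chr1:172340960-172341209 for *Kcnj10* and chr10:52690251-52690500 for *Slc35f1*, the last ending 32 bases before the annotated start.
Fabp7: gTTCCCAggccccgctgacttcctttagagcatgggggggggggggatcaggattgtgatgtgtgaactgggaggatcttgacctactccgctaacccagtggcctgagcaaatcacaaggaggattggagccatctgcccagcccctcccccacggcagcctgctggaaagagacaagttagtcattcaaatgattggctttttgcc
Kcnj10: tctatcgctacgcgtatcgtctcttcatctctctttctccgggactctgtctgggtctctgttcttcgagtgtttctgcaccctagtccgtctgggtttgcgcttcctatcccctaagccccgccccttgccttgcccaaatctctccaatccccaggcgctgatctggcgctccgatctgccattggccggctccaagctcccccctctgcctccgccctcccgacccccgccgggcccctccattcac
Slc35f1: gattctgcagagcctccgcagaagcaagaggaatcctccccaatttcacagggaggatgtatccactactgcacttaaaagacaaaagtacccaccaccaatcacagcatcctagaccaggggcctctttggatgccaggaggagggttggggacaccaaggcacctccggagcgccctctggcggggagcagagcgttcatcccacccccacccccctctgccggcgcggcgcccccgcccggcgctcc
Capitals mark the only match, on the minus strand, to the RBPJ-type motif TGGGAA, which reads as TTCCCA on the other strand, the core letters bound by the Notch effector RBPJ. It lies at chr10:57784674-57784679. The SOX-type motif ACAAAG, which reads as CTTTGT on the other strand, had no match in the 3 windows. Of the 32851 RefSeq promoters, 18.5% held the RBPJ-type letters and 14.1% the SOX-type letters in a window of 208 bases, and 21.6% and 16.5% in a window of 250 bases. A match is a description of the letters and not evidence of binding.

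The female library gave 544 members, 14.3% of its 3791 nuclei (exact binomial interval 13.2 to 15.5%), and the male library 769, 15.6% of its 4923 nuclei (14.6 to 16.7%). The 2 intervals overlapped. Members held between 1000 and 57798 UMIs in females, with a median of 2404.5, and between 1050 and 84881 in males, with a median of 2565.0. The median number of genes per member was 1491 and 1631. Summed over members, the depth was 1966577 UMIs in females and 2886759 in males. In each library a small number of nuclei, 22 and 37, held more than 10000 UMIs. The libraries shared 8 barcodes, and 5 members carried such a barcode.

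Membership rested largely on *Slc35f1*. This gene gave 74.1% of the 7017 UMIs of the 5 genes in female members and 58.7% of the 9312 in male members, while *Fabp7* gave 16.0% and 29.7%, *Lgr5* 4.96% and 4.40%, *Ednrb* 3.35% and 5.33%, and *Kcnj10* 1.64% and 1.87%. Only 12 female and 41 male members had no *Slc35f1* UMI, whereas 128 female and 73 male members had no UMI of any of the other 4 genes. With *Slc35f1* left out of the sum, 83 female and 236 male nuclei passed. The name by *Fabp7* and *Ednrb* therefore holds for part of the nuclei, and the members are described below both as a whole and by their UMIs of those 4 genes.

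The threshold cut through a continuous range. The median member had 10 UMIs of the 5 genes in females and 9 in males, and 43 and 85 members had exactly 4. A further 58 and 91 nuclei met every other condition with 3 UMIs. Between 12 and 15 per 10000 lay 32 female and 49 male members, and between 9 and 12 per 10000, just outside, lay 29 and 57 nuclei. The limit on myelin genes removed 71 and 119 nuclei, and a larger sum of the *Col28a1* group removed 31 and 33.

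The *Col28a1* group was also found inside the members. At least 4 UMIs of those 4 genes were present in 195 female members (35.8%) and 267 male members (34.7%), and none in 153 and 173. Among all nuclei under the myelin limit with at least 8 UMIs, and at least 12 per 10000, of the 9 genes, the share of those UMIs from the 5 satellite glia genes ran down to below 0.05 in females and to between 0.15 and 0.2 in males. It was 0.8 or more in 221 female and 270 male nuclei, from 0.6 to 0.8 in 174 and 250, from 0.4 to 0.6 in 81 and 99, from 0.2 to 0.4 in 33 and 22, and below 0.2 in 21 and 2. The numbers were smaller at low shares in both libraries, and no empty range lay between the members and the other nuclei counted.

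**Figure D1:**
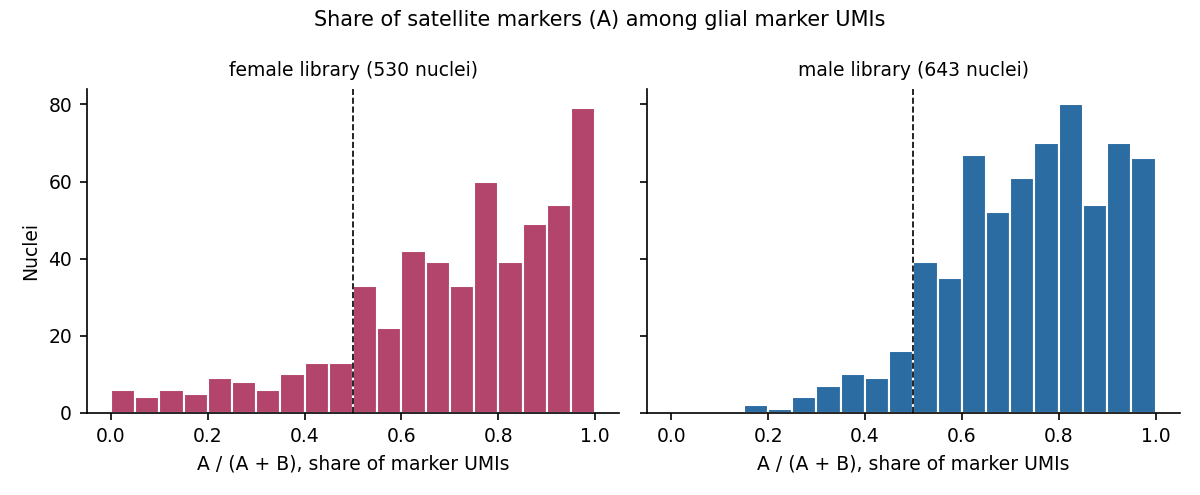
Number of nuclei (vertical axis) by the share of their glial marker UMIs that came from the 5 satellite glia genes (horizontal axis, 0 to 1), for 530 female and 643 male nuclei with at least 8 marker UMIs and at least 12 per 10000. The bars from 0.8 upward hold 221 female and 270 male nuclei together, and below 0.15 there are nuclei in the female library but not in the male.

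The genes of the rule chose the members, so their levels are given as a description. *Slc35f1* stood at 26.4 UMIs per 10000 in female members and 18.9 in male members, against 2.20 and 1.69 in the other nuclei, meaning all nuclei in neither of the 2 glial groups. *Fabp7* stood at 5.71 (Poisson interval 5.38 to 6.05) in females and 9.59 (9.23 to 9.95) in males, against 1.12 and 1.91. *Ednrb* was at 1.19 (1.05 to 1.36) and 1.72 (1.57 to 1.88), against 0.200 and 0.270. All 3 genes stood above the other nuclei in each library, and *Fabp7* and *Ednrb* were higher in the male members while *Slc35f1* was higher in the female members. *Lgr5* was at 1.77 and 1.42, against 0.163 and 0.164, and *Kcnj10* at 0.585 (0.483 to 0.702) and 0.603 (0.517 to 0.699), against 0.0759 and 0.0721. The intervals of *Kcnj10* overlapped between the libraries.

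*Fabp7* transcripts were not limited to glia. A *Fabp7* UMI was present in 62.1% of female and 80.8% of male members, but also in 25.4% and 46.6% of macrophage nuclei and in 26.4% and 48.7% of endothelial nuclei. These were nuclei outside the glial groups with at least 4 UMIs, and at least 12 per 10000, of 8 macrophage or 9 endothelial genes. Their median depth was 1859 and 1870 UMIs for macrophages and 2455.5 and 2467 for endothelium. After each nucleus was thinned to 1000 UMIs the shares were 37.1% and 56.0% in members, 15.7% and 31.1% in macrophage nuclei and 10.8% and 23.1% in endothelial nuclei. The choice of members by *Fabp7* fixes the direction of this difference. In macrophage and endothelial nuclei too the share was higher in the male library. The source of the *Fabp7* UMIs in those nuclei was not tested. *Lgr5* had a UMI in 34.0% and 35.1% of members, in 0.00% and 2.91% of macrophage nuclei and in 1.24% and 1.51% of endothelial nuclei. *Ednrb* was detected in 27.6% and 35.4% of members, in 5.22% and 12.6% of macrophage nuclei and in 5.79% and 12.1% of endothelial nuclei. *EGFP* had 0 UMIs in the members of both libraries, which by the limit of 3 UMIs over each library's members says only that it was not detectable at this depth.

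**Figure D2:**
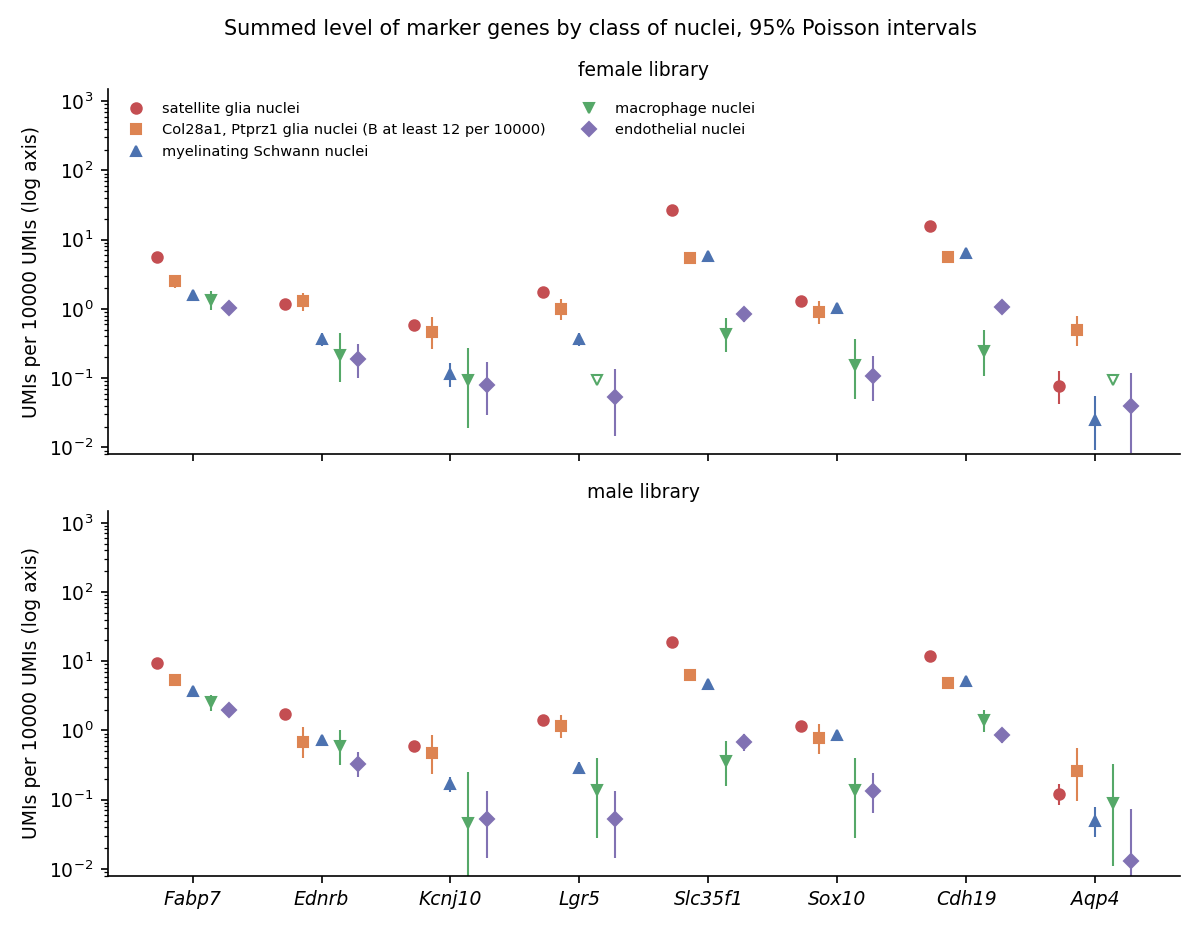
UMIs per 10000 UMIs (log axis) of 8 marker genes in 5 classes of nuclei, with 1 symbol for each library and class (B is the sum of the *Col28a1* group genes), and open symbols at the level of 3 UMIs where a gene had 0. *Slc35f1* stands at 26.4 and 18.9 in the satellite glia nuclei, above the other 4 classes in each library.

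The members carried the transcription factors and receptors of neural crest glia, none of which entered the rule. Since the members were chosen from the same counts, this and the following ratios are descriptions with no test. Of a list of 12 such genes, 9 were at least 2-fold higher in the members than in the other nuclei in both libraries and none was 2-fold lower. The median log2 ratio of the list was 1.63 in females and 1.997 in males, beside -0.02 and 0.03 over all 16926 genes with at least 50 UMIs. Of those 16926 genes, 550 (3.25%) were at least 2-fold higher in both libraries and 754 (4.45%) at least 2-fold lower. The balance depended on the settings, with 478 higher and 1190 lower on means over nuclei and 884 higher and 269 lower with 5 UMIs added to each sum. Without nuclei of more than 10000 UMIs, 359 of the 550 and 311 of the 754 were still counted. *Sox10*, the transcription factor required for the development of peripheral glia, was at 1.29 UMIs per 10000 in female members against 0.351 in the other nuclei, and at 1.15 against 0.245 in males. *Erbb3*, the receptor by which glia receive neuregulin, was at 1.34 against 0.314 and at 1.15 against 0.277. For both genes the libraries gave almost the same level and the same direction. *Sox2*, a factor kept on in glia that do not myelinate, was at 0.325 against 0.0411 and at 0.298 against 0.0475, and the adhesion molecule *Cdh19* was at 15.9 against 2.34 and at 11.996 against 1.59. *Foxd3*, *Sox6*, *Zeb2* and *Gpr37l1* were also among the 9. *S100b* (log2 ratio 0.32 and 0.42), *Ngfr* (-0.13 and 0.27) and *Cryab* (-0.09 and 0.35) were within 2-fold of the other nuclei.

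Genes often used for satellite glia were unequal. From a list of 14 such genes outside the rule, 9 were at least 2-fold higher in both libraries and none lower, with medians of 1.25 and 1.24. *Apoe*, a lipid carrier, was at 15.5 UMIs per 10000 against 3.93 in females and at 19.5 against 4.68 in males. *Hey2*, a Notch target, was at 1.12 against 0.158 and at 1.12 against 0.174. *Fbln5*, a matrix protein, was at 1.18 against 0.294 and at 1.30 against 0.245, and the proteoglycan *Bcan* at 0.625 against 0.0823 and at 0.475 against 0.0861. The secreted or adhesion proteins *Lgi4* (log2 ratio 2.44 and 2.29), *Matn2* (2.02 and 2.20) and *Ncam1* (1.41 and 1.02), the growth factor *Ptn* (1.01 and 1.14) and the acyl-CoA binding protein *Dbi* (1.10 and 1.33) were the other 5. Glutamine synthetase *Glul* (0.05 and 0.38), the connexin 43 gene *Gja1* (0.22 and 0.88) and the glutamate transporter *Slc1a3* (0.02 and 0.47) did not reach 2-fold in either library. These 3 are textbook satellite glia genes, and the members differed from the rest of the ganglion by less than 2-fold in each. The intermediate filament *Gfap*, raised in activated glia, had 0 UMIs in female members and 4 in male members. Against the *Col28a1* group, described below, 8 of the 14 genes were at least 2-fold higher in both libraries. With that group also held to at least 12 per 10000 UMIs the count was 0 of 14 (medians 0.14 and 0.46). Without nuclei of more than 10000 UMIs it was 1 of 14. Over all genes 6.55%, 1.36% and 0.910% were higher in these comparisons, in that order. A count of 0 of 14 beside 1.36% is therefore not particular to this list.

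Notch signalling lets neighbouring cells set each other's fate and keeps many glia from differentiating. Of 13 genes of this pathway with at least 50 UMIs, 6 were at least 2-fold higher in both libraries and none lower, with medians of 0.83 and 0.90. Among receptors and ligands, *Notch1* was at 0.910 UMIs per 10000 against 0.183 in females and at 0.724 against 0.146 in males, and the ligand *Jag1* at 0.686 against 0.340 and at 0.575 against 0.182. Among the targets and feedback genes, *Hes5* had few UMIs (14 in female and 38 in male members) with log2 ratios of 2.66 (interval 1.50 to 3.78) and 2.45 (1.81 to 3.06). *Nrarp* was at 0.153 against 0.0284 and at 0.215 against 0.0466, and *Heyl* at 0.163 against 0.0397 and at 0.114 against 0.0326. *Dtx4*, a ubiquitin ligase of the pathway, gave log2 ratios of 1.29 and 1.05. The general target *Hes1* (0.32 and 0.76) and the DNA-binding effector *Rbpj* (-0.69 and 0.05) did not reach 2-fold. Against the *Col28a1* group, described below, 4 of 13 Notch genes were at least 2-fold higher in both libraries. With that group also held to at least 12 per 10000 UMIs the count was 0 of 13 (medians 0.06 and -0.42). Without nuclei of more than 10000 UMIs it was 0 of 12. Over all genes 6.55%, 1.36% and 0.910% were higher in these comparisons, in that order. The counts of 0 are therefore not particular to this list.

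Potassium and ion transport genes were mixed, with 4 of 19 at least 2-fold higher in both libraries and medians of 0.14 and 0.39. *Kcnj16*, whose protein forms channels together with Kir4.1, was at 0.0966 UMIs per 10000 against 0.0128 in females and at 0.177 against 0.0204 in males. *Aqp4*, a water channel, was at 0.0763 against 0.0291 and at 0.121 against 0.0233, *Kcna1*, a voltage-gated potassium channel, at 3.34 against 1.52 and at 2.53 against 1.26, and *Fxyd1*, a regulator of the sodium pump, gave log2 ratios of 1.30 and 1.44. Against the *Col28a1* group, described below, 4 of 19 genes of this list were higher and 1 lower in both libraries. With that group held to at least 12 per 10000 UMIs, 2 of 18 were higher and 1 lower. Without nuclei of more than 10000 UMIs, 1 of 17 was higher and 0 lower. Over all genes 6.55%, 1.36% and 0.910% were higher, in that order.

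For glutamate and GABA handling, 6 of 19 genes were at least 2-fold higher and 2 at least 2-fold lower in both libraries, and the medians were 0.02 and 0.09. Transporters on the higher side were *Slc1a2* (glutamate; log2 ratio 1.07 and 1.69), *Slc1a5* (neutral amino acids; 1.34 and 1.66), *Slc6a11* (GABA; 1.40 and 1.60) and *Slc7a2* (cationic amino acids; 1.05 and 1.34). The kainate receptor subunits *Grik2*, at 17.3 UMIs per 10000 against 6.05 in females and 10.7 against 2.65 in males, and *Grik3*, at 1.27 against 0.223 and at 1.03 against 0.147, were also higher. The cystine transporter *Slc7a11* (-1.72 and -1.06) and the glutamine transporter *Slc38a3* (-1.39 and -2.05) were lower. Transport genes thus divided by member and not as a group. The gap junction genes had 1 of 7 higher, *Gjc3* at 1.72 against 0.479 and at 1.31 against 0.332, and 1 lower, *Gjb6* (-2.16 and -1.17). Against the *Col28a1* group, described below, 3 of 16 glutamate and GABA handling genes were higher and 1 lower in both libraries. With that group held to at least 12 per 10000 UMIs, 0 of 16 were higher and 2 lower (medians -0.60 and -0.14). Without nuclei of more than 10000 UMIs the counts were the same. Over all genes 6.55%, 1.36% and 0.910% were higher, in that order.

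In the pathway of *Lgr5*, 5 of 23 genes were at least 2-fold higher and 2 lower in both libraries. *Lgr4*, the related R-spondin receptor, was at 4.09 UMIs per 10000 against 1.37 in females and at 3.15 against 0.953 in males. *Tcf7l1*, a nuclear repressor of Wnt targets, was at 1.92 against 0.737 and at 1.74 against 0.435. The receptor *Fzd8* (log2 ratio 1.09 and 1.42) and the secreted inhibitors *Sfrp1* (1.03 and 1.29) and *Sfrp5* (1.23 and 1.62) were higher, and the ligands *Rspo3* (-1.55 and -1.17) and *Wnt16* (-2.42 and -2.25) lower. The other 16 genes of the list did not reach 2-fold in both libraries, and its medians were -0.04 and 0.34. In the pathway of *Ednrb*, none of 7 genes reached 2-fold in both libraries, beside 3.25% higher and 4.45% lower of all genes. The ligand genes *Edn1* (0.15 and -0.08) and *Edn3* (-0.91 and -0.04), the receptor *Ednra* (-0.89 and -0.34) and the converting enzyme *Ece1* (0.46 and 0.64) are examples. In the neuregulin list of 8 the co-receptor *Erbb2* was higher (1.50 and 1.38), while the ligand *Nrg3* was at 7.09 against 19.0 and at 6.55 against 23.3. Against the *Col28a1* group, described below, 5 of 18 genes of the *Lgr5* pathway were higher in both libraries. With that group held to at least 12 per 10000 UMIs the count was 0 of 18 (medians -0.13 and -0.24). Without nuclei of more than 10000 UMIs it was 0 of 16. Over all genes 6.55%, 1.36% and 0.910% were higher, in that order.

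Lipid genes were also looked at because *Fabp7* binds fatty acids. Of 22 lipid handling genes 2 were higher and none lower, namely *Gpam*, which starts triglyceride and phospholipid synthesis, at 3.47 UMIs per 10000 against 0.540 in females and 2.83 against 0.331 in males, and the lipid transporter *Abca8a*, at 12.7 against 2.12 and 9.89 against 1.42. None of 23 cholesterol synthesis genes reached 2-fold in both libraries, although their medians, 0.54 and 0.36, lay above those of all genes. Of all genes 3.25% were higher and 4.45% lower, so a count of 0 in a list of this size says little. None of 18 FGF, BMP and TGF-beta genes reached 2-fold in both, to which the same applies. From 13 repair and stress genes 1 did, *Sox2ot*, the transcript that overlaps *Sox2* (2.73 and 2.89), and since no source used here states whether counting was by strand, its UMIs and those of *Sox2* may be shared. Against the *Col28a1* group, described below, 4 of 22 lipid handling genes were higher in both libraries. With that group held to at least 12 per 10000 UMIs the count was 0 of 21 (medians 0.18 and 0.29). Without nuclei of more than 10000 UMIs it was 0 of 21 too. Over all genes 6.55%, 1.36% and 0.910% were higher, in that order.

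Outside these lists, the genes with the highest ratios over the other nuclei were led by *Zfp663* and *Cyp4f15*. *Cyp4f15*, a cytochrome P450, was at 0.229 UMIs per 10000 against 0.0113 in females and at 0.170 against 0.0119 in males. *Cdh20*, a cadherin, was at 2.41 against 0.268 and at 1.85 against 0.194, and *Megf10*, an engulfment receptor of glia, at 2.05 against 0.242 and at 1.82 against 0.206. The transcription factor *Tfap2a* of the neural crest (2.89 and 2.99), the retinoid binding protein *Rlbp1* (3.44 and 2.85), the endothelial lipase gene *Lipg* (3.35 and 3.999), the sulfate transporter *Slc13a1* (3.27 and 3.32) and *Mmd2* (3.20 and 3.48) were in the same group. The tight junction gene *Cldn14* had 0 UMIs in the members of both libraries and was at least 5.92-fold lower than in the other nuclei by the limit of 3 UMIs over each library's members.

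**Figure D3:**
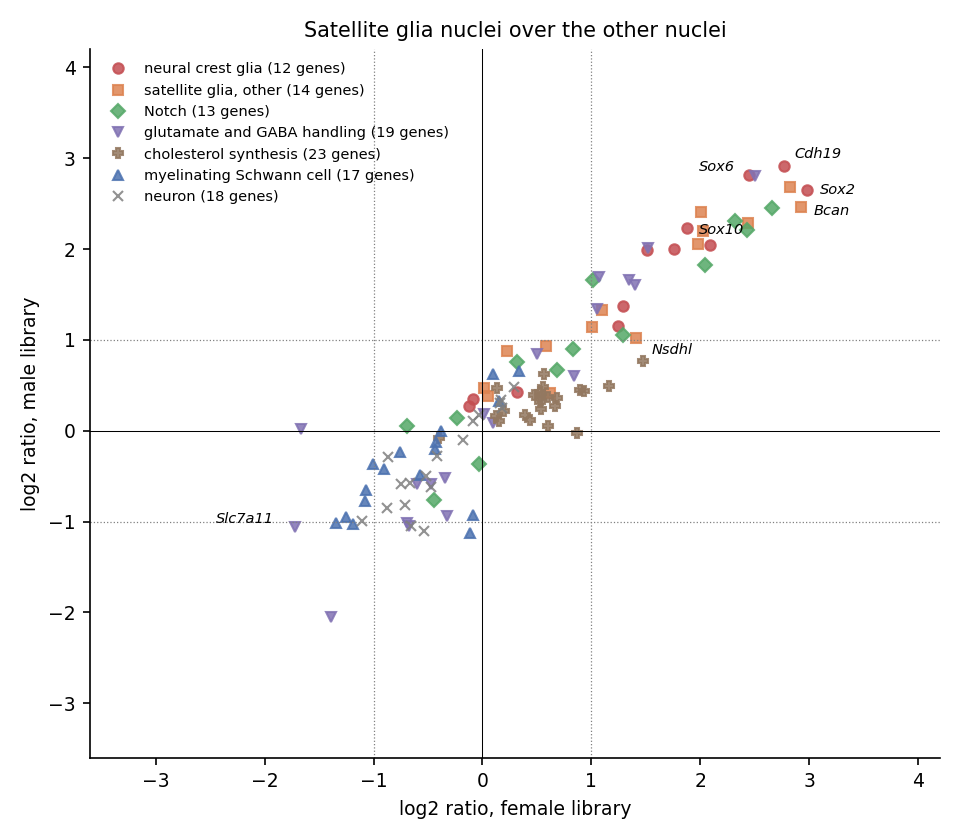
Log2 ratio of satellite glia nuclei over the other nuclei for the genes of 7 lists, females on the horizontal and males on the vertical axis, each point a gene. Neural crest glia genes lie mostly in the upper right (medians 1.63 and 1.997), while neuron genes lie around -0.50 and -0.39.

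Marker genes of other cell types were present at unequal levels in the members. Of 18 neuron genes none was 2-fold higher or lower in both libraries (medians -0.50 and -0.39), beside 3.25% higher and 4.45% lower of all genes. Their summed level was 51.6 UMIs per 10000 in female and 80.8 in male members. It was led by *Syt1* and *Tubb3*, with none of the 18 at 0. The same list stood at 33.0 and 66.8 in endothelial nuclei, and *Tubb3*, a neuronal tubulin, stood at 6.07 and 14.7 in members, at 4.60 and 14.0 in macrophage nuclei and at 4.50 and 13.3 in endothelial nuclei. Neuronal transcripts were therefore spread over non-neuronal nuclei, and more so in the male library. Myelinating Schwann genes summed to 19.5 and 19.99, against 98.7 and 80.9 in myelinating Schwann nuclei. Macrophage genes summed to 0.564 and 0.942, endothelial genes to 3.0001 and 2.05, mural cell genes to 1.35 and 1.11 and fibroblast genes to 10.5 and 8.81, the last led by *Dcn*, each list without a gene at 0. Of the oligodendrocyte lineage genes, which summed to 0.956 and 0.873, *Mog*, *Opalin* and *Olig2* were at 0 in both libraries. Pituitary genes summed to 4.05 and 1.51, adipocyte genes to 1.78 and 0.242 and cerebellar granule cell genes to 3.41 and 2.53. The last sums hide a difference by gene. Of the 4 cerebellar granule cell genes with enough UMIs, 3 were at least 2-fold lower in male than in female members (median log2 ratio -3.80). Of 7 barrier fibroblast genes 5 were at least 2-fold lower in both libraries and none higher. The astrocyte and Bergmann glia list, 12 genes of which 2 were higher and 1 lower, summed to 14.7 and 11.9, led by *Slc4a4*. The part of RNA from other cell types in the results was not tested.

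The comparison with myelinating Schwann nuclei asked how far the members differed from the myelin-forming glia of the same neural crest lineage. These 352 female and 432 male nuclei were those outside both other glial groups with at least 4 UMIs of the 4 myelin genes of the rule. Of 13229 genes, 296 (2.24%) were at least 2-fold higher and 330 (2.49%) at least 2-fold lower in the members in both libraries, with the myelin limit of the rule bearing on this contrast. Of 17 other myelinating Schwann genes 16 were lower. *Mag*, an adhesion protein of the inner myelin layer, was at 0.0712 UMIs per 10000 against 0.502 in females and at 0.0624 against 0.356 in males, and the myelin transcription factor *Egr2* gave log2 ratios of -1.84 and -2.74. *Cnp* was the exception, at -0.998 and -0.69. *Sox10* (0.31 and 0.42) and *Foxd3* (0.25 and 0.29) were within 2-fold between the kinds of glia. Of the 12 neural crest glia genes 3 were higher in the members, *Cdh19* (1.33 and 1.19), *Sox2* (2.43 and 1.24) and *Sox6* (1.81 and 1.65), and 1 was lower, the small heat shock protein *Cryab* (-1.65 and -1.40), with medians of 0.28 and 0.43.

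Of the 14 other satellite glia genes 6 were higher in the members than in myelinating Schwann nuclei, with medians of 1.02 and 1.001, beside 0.01 and 0.03 over all genes. They included *Hey2* (2.96 and 1.82), *Bcan* (2.40 and 1.66), *Apoe* (1.44 and 1.03) and *Fbln5* (1.09 and 1.11). Of 13 Notch genes 5 were higher, *Notch1* with 1.87 and 1.27, *Jag1* with 1.52 and 1.34, *Hes5* with 1.68 and 1.41, *Nrarp* with 2.51 and 1.01 and *Heyl* with 3.98 and 1.37. The bicarbonate transporter *Slc4a4* stood at 7.97 UMIs per 10000 against 3.19 in females and at 6.65 against 2.24 in males. Further genes on the higher side were *Cyp4f15* (3.62 and 3.07), *Nckap5* (2.76 and 2.61), *Lhcgr* (3.11 and 2.47), the scaffold gene *Shank2* (2.68 and 2.29), *Gpam* (2.42 and 2.44) and *Cdh20* (2.32 and 2.31). On the lower side were *Sptbn5* (-4.39 and -5.06), *Sec14l5* (-3.55 and -4.31), *Ankfn1* (-3.59 and -2.88) and the neurotrophic cytokine *Cntf* of Schwann cells (-2.86 and -3.06). *Cldn14* was at least 26.4-fold lower.

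The rule also set the members against the glia with at least 4 UMIs of *Col28a1*, *Ptprz1*, *Fras1* and *Acsbg1* and more of these than of the 5 satellite glia genes. They numbered 154 in female and 115 in male ganglia and were deeper, with medians of 3852 and 4572 UMIs. Of 12004 genes, 786 (6.55%) were at least 2-fold higher in the members in both libraries and 489 (4.07%) at least 2-fold lower. The balance depended on the scaling: with median-of-ratios size factors 451 genes were higher and 673 lower, and with the mean over nuclei in place of the sum 249 were higher and 407 lower. The median log2 ratio of all genes was 0.18 in females and 0.21 in males.

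The contrast also depended on the choice of nuclei. With the 5-gene sum of members at least 3 times their *Col28a1* group sum, and the reverse for that group, 982 genes were higher and 435 lower. The contrast was smaller under 2 other choices, which with the first make up the 3 forms below. With the *Col28a1* group also held to at least 12 per 10000 UMIs as the members were, which left 103 female and 63 male nuclei with medians of 3051 and 2679 UMIs, 150 of 11066 genes (1.36%) were higher and 63 (0.569%) lower. Without nuclei of more than 10000 UMIs in either group, 95 of 10436 genes (0.910%) were higher and 120 (1.15%) lower. Markers of other cell types were higher along with the glial genes in the first form, for example in 9 of 13 myelinating Schwann genes (medians 1.48 and 1.62), 6 of 11 fibroblast genes (1.01 and 1.45) and 3 of 5 macrophage genes (1.30 and 1.11). Neuron genes went the other way, with 3 of 18 lower and none higher (-0.57 and -0.39), and 2 of 8 astrocyte and Bergmann glia genes were lower and none higher. Under the 12 per 10000 limit the first 3 counts were 0 of 13, 1 of 11 and 1 of 3 and no neuron gene was counted, while mural cell genes went from 2 of 6 to 3 of 6 higher (0.72 and 0.97). Without nuclei of more than 10000 UMIs the first 3 counts were 2 of 13, 1 of 11 and 1 of 2, and 1 of 3 mural cell genes was higher. The part of these markers in the contrast was not tested. Neural crest glia genes were higher for 9 of 12 in the first form and for 2 of 12 in each of the others, and *Sox10* went from 2.09 and 2.44 to 0.49 and 0.53, then to 1.06 and 0.97. *Apoe* went from 2.16 and 2.09 to 0.71 and 0.50, then to 0.95 and 0.49. The ratios of these genes thus moved by more than 2-fold with the choice of nuclei. Of the genes of the rule under the 12 per 10000 limit, given as a description, *Slc35f1* was past 2-fold in both libraries (2.26 and 1.60), *Fabp7* (1.16 and 0.86) and *Ednrb* (-0.11 and 1.27) in 1 library each, and *Lgr5* (0.82 and 0.26) and *Kcnj10* (0.29 and 0.28) in none. *Alk*, a receptor tyrosine kinase, changed direction in females, from -3.57 to 1.11 with the 12 per 10000 limit.

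In all 3 forms 26 genes were at least 2-fold higher and 12 at least 2-fold lower in both libraries. The 26 included the macrophage gene *Mrc1* and the collagen gene *Col3a1*, whose smallest log2 ratios over the 3 forms were 1.08 and 1.05. *Rasgef1c*, a guanine nucleotide exchange factor, was at 0.981 UMIs per 10000 in female members against 0.0658 in the *Col28a1* group and at 0.582 against 0.0757 in males. Its log2 ratios were 3.82 and 2.86 in the first form and 3.27 and 2.43 in the second. They too rest on few *Rasgef1c* UMIs in the *Col28a1* group. *Cdh19* was at 15.9 against 1.98 and at 11.996 against 1.50, with log2 ratios of 3.01 and 2.999 in the first form and 1.50 and 1.28 in the second. *Foxd3*, which holds neural crest cells in an immature state, the galectin *Lgals3*, the receptor of hepatocyte growth factor *Met* and *Kcna1* were also higher in the 3 forms, *Foxd3* with 3.10 and 2.62, *Lgals3* with 2.65 and 2.61, *Met* with 2.33 and 2.75 and *Kcna1* with 2.49 and 1.92 in the first. Over the 3 forms and both libraries the smallest ratio was 1.57 for *Foxd3*, 2.24 for *Lgals3*, 1.37 for *Met* and 1.04 for *Kcna1*. *Met* went to -0.15 when *Slc35f1* was left out of the rule. *Lgals3* and *Met* had few UMIs in the *Col28a1* group, between 3 and 8 in each library in the first form and 1 or 0 in the second. On the lower side, the sorting receptor *Sorcs3* was at 0.407 against 1.70 and at 0.156 against 1.01, and the AMPA receptor subunit *Gria4* at 4.65 against 17.9 and at 3.02 against 13.4. The contactin *Cntn4* (-1.66 and -1.49 in the first form), *Greb1l* (-2.47 and -2.35) and *Sncaip* (-2.61 and -2.25), which encodes a partner of alpha-synuclein, were lower as well. The ratios nearest 0 over the 3 forms, all in the male library without nuclei of more than 10000 UMIs, were -1.33 for *Greb1l*, -1.03 for *Sncaip* and -1.09 for *Gria4*.

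The members differed among themselves in their UMIs of *Fabp7*, *Ednrb*, *Kcnj10* and *Lgr5*. At least 4 were present in 180 female and 349 male members (median depth 4292.5 and 3264 UMIs), 1 to 3 in 236 and 347, and none in 128 and 73 (1757.5 and 1727 UMIs). The split uses the counts of the same nuclei and goes with depth, so the ratios describe it and test nothing. Of 9380 genes, 133 (1.42%) were at least 2-fold higher in both libraries in the first set than in the last and 73 (0.778%) at least 2-fold lower. The balance turned over under other settings, with 14 higher and 30 lower after thinning to 1000 UMIs and 10 higher and 356 lower with 5 UMIs added to each sum. Among nuclei of 1500 to 3000 UMIs, 26 of the 133 and 17 of the 73 stayed past 2-fold in both libraries. Of the genes that did not, leaving out predicted genes, 130 had fewer than 50 UMIs there and 11 were measured and under 2-fold in at least 1 library.

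Members with 4 or more UMIs of the 4 genes had more of the other satellite glia genes. Of 14 on that list 6 were higher and 1 lower, with medians of 1.10 and 0.86. *Apoe* was at 21.8 UMIs per 10000 against 5.46 in females and at 23.0 against 9.50 in males. *Fbln5* was at 1.58 against 0.341 and at 1.48 against 0.410, and *Hey2* at 1.51 against 0.465 and at 1.25 against 0.547. *Slc1a3* (1.27 and 1.71), which did not stand out over the members as a whole, was higher here, as was *Gja1* (2.21 and 1.61), with only 2 and 1 UMIs in the members without the 4 genes and intervals of 0.56 to 5.61 and -0.35 to 7.51. Between 1500 and 3000 UMIs both had fewer than 50 UMIs and were not counted. *Bcan* had 94 UMIs against 3 in females, at 0.925 against 0.0931 per 10000, and 0.535 per 10000 against 0 UMIs in males, so that its ratio in males depends on the 0.5 UMIs added, as does that of *Heyl*, which also had 0. Kinase *Mapk4* was at 2.24 against 0.558 and at 1.86 against 0.273, *Slc4a4* at 10.7 against 2.82 and at 7.32 against 2.80, and *Jag1* at 0.905 against 0.310 and at 0.738 against 0.273. *Apoe*, *Fbln5*, *Hey2*, *Jag1*, *Mapk4*, *Slc4a4* and *Gpam* were among the 26 genes that also passed between 1500 and 3000 UMIs. Markers of other cell types were higher in the same members, in 3 of 3 barrier fibroblast genes (*Ranbp3l*, *Slc6a20a* and *Slc7a11*; medians 2.37 and 1.34), 2 of 7 endothelial genes, 1 of 2 mural cell genes and 1 of 3 macrophage genes, while 1 of 4 pituitary genes and 1 of 2 oligodendrocyte lineage genes were lower. All 7 that were higher rested on 4 UMIs or fewer in the members without the 4 genes in each library and had fewer than 50 UMIs in the depth band, and their part in the split was not tested.

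Members without the 4 genes were high in *Slc35f1*, at 36.5 and 38.2 UMIs per 10000 against 19.1 and 14.2, as the rule requires of a nucleus with none of the others. They also had more *Cdh19*, at 22.5 against 9.56 in females and at 27.5 against 7.65 in males, and more of the sodium channel *Scn7a* of non-myelinating Schwann cells, at 11.8 against 2.88 and at 12.03 against 3.70. *Kcna1* was at 5.77 against 1.55 and at 6.01 against 1.46, the membrane scaffold *Ank3* at 29.1 against 9.11 and at 21.5 against 6.83, and *Rasgef1c* at 1.61 against 0.236 and at 2.39 against 0.209. From the 11 non-myelinating Schwann genes, *Scn7a* and *Adam23* (-1.45 and -1.39) were the 2 that passed, and the list's medians were -0.43 and -0.20. The adhesion gene *Cadm2* (-1.51 and -1.35) was the 1 satellite glia gene on this side, and *Met* (-1.97 and -3.57) and the integrin *Itgb4* (-1.66 and -1.80) were lower with the 4 genes too. *Scn7a*, *Adam23*, *Kcna1*, *Ank3*, *Rasgef1c*, *Cadm2*, the neurotrophin receptor *Ntrk3* and the secreted glycoprotein *Reln* passed between 1500 and 3000 UMIs as well. *Sox10* (-0.11 and -0.75) and *Sox2* (0.12 and 0.05) were within 2-fold, while of the 12 neural crest glia genes 1, *Cdh19*, was lower with the 4 genes and none higher (medians -0.04 and -0.71). *Kcna1*, *Rasgef1c*, *Met* and *Cdh19*, counted as higher against the *Col28a1* group as well, were higher in the members with no *Fabp7*, *Ednrb*, *Kcnj10* or *Lgr5* UMI than in those with 4 or more. Between 1500 and 3000 UMIs *Kcna1* and *Rasgef1c* were still counted, *Cdh19* was not, at -0.999 and -1.41, and *Met* had too few UMIs.

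**Figure D4:**
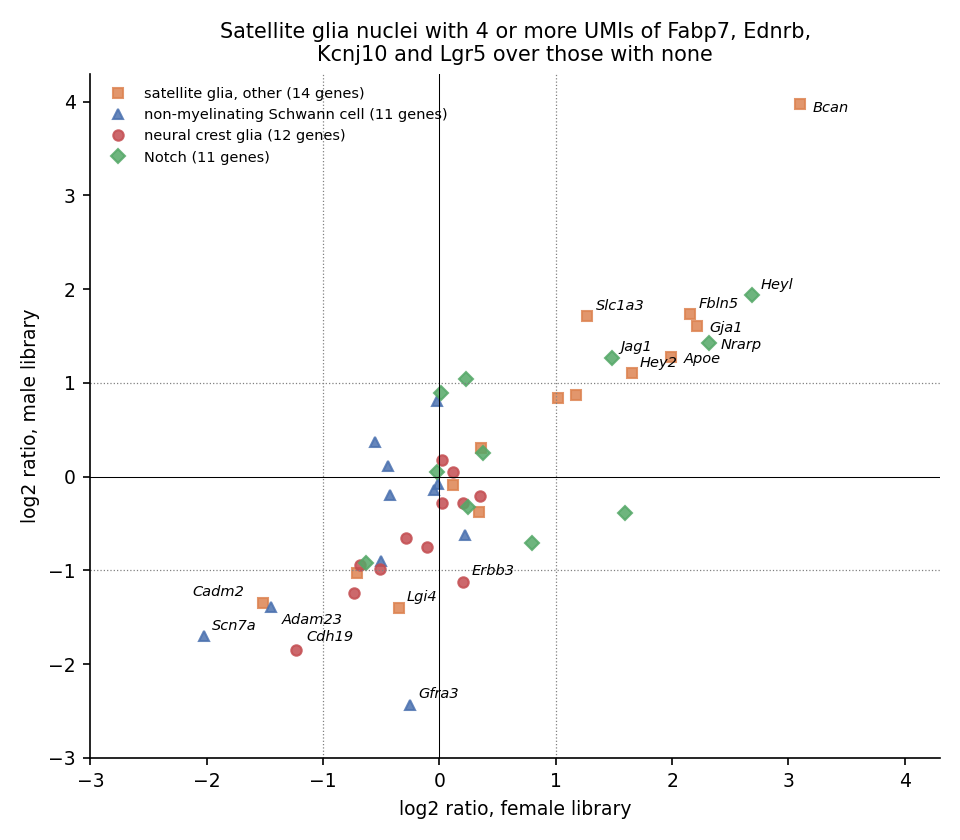
Log2 ratio of members with 4 or more UMIs of *Fabp7*, *Ednrb*, *Kcnj10* and *Lgr5* over members with none, females on the horizontal and males on the vertical axis, each point a gene of 4 lists, with dotted lines at 2-fold. *Apoe* lies on the higher side at 1.99 and 1.27, and *Scn7a* on the lower side at -2.03 and -1.71.

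The last comparison set male members against female members, the question of the study. Of 10697 genes, 384 (3.59%) were at least 2-fold higher and 249 (2.33%) at least 2-fold lower in the male library, without *Xist*, *Tsix* and Y-linked genes. All 5 genes of the rule were within 2-fold. Their sum chose the members of both libraries, so the rule bears on these ratios, which are given as a description. *Fabp7* gave a log2 ratio of 0.75 (0.65 to 0.85), *Ednrb* 0.52 (0.30 to 0.75), *Kcnj10* 0.04 (-0.30 to 0.40), *Lgr5* -0.32 (-0.53 to -0.11) and *Slc35f1* -0.48 (-0.54 to -0.43). In macrophage and endothelial nuclei *Fabp7* differed between the libraries by 0.90 and *Ednrb* by 0.97, which is at least as much as in the members. The rule bears on both sides here, since those nuclei were taken from outside the glial groups. *Sox10* (-0.16), *Cdh19* (-0.41) and *Apoe* (0.33) were within 2-fold.

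Among the genes with the highest male over female ratios were 4 known from sympathetic neurons, singled out after their values were seen. *Dbh*, which makes noradrenaline, was at 0.132 UMIs per 10000 in female and 1.36 in male members, the noradrenaline transporter *Slc6a2* at 0.244 and 2.16, the sympathetic transcription factor *Hand2* at 0.0254 and 0.433, and the neuropeptide *Npy* at 0.132 and 0.876. A single male nucleus held 105 of the 253 *Npy* UMIs. The same genes gave log2 ratios of 4.27, 3.76, 3.64 and 2.88 in macrophage and endothelial nuclei, beside 3.34, 3.13, 3.96 and 2.70 in the members. *Hand2* and *Npy* were not among the genes with enough UMIs in macrophage and endothelial nuclei, so their ratios there rest on few UMIs. The differences of *Dbh* and *Slc6a2* were thus not limited to the members.

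On the lower side were the pituitary hormone *Prl*, at 2.23 in female and 0.142 in male members, the brown fat gene *Ucp1*, at 0.422 and 0.0242, the lipase gene *Lpl*, at 0.814 and 0.128, and the potassium channel *Kcnd2*, at 10.2 and 0.717. The ratios were -3.96 for *Prl*, -4.03 for *Ucp1*, -2.65 for *Lpl* and -3.83 for *Kcnd2* in members, and -4.28, -3.97, -2.67 and -4.68 in macrophage and endothelial nuclei. All 4 were lower in the male library in the members and in the macrophage and endothelial nuclei alike. The cold channel *Trpm8* was also on this side, with 128 of its 181 female UMIs in 1 nucleus of 57798 UMIs, as was *Nxph1*, with 46 of 72 in 1 nucleus.

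Over all genes, of the 384 higher in male members 211 had enough UMIs in macrophage and endothelial nuclei, and 205 of these had the same direction there, 128 of them past 2-fold. Of the 249 lower genes 156 were measured there, 147 with the same direction and 89 past 2-fold. Over all 7504 genes measured in both, 3586 were higher and 3918 lower in the male macrophage and endothelial nuclei, 506 and 262 of them past 2-fold. The median log2 ratios were 1.12 in members and 1.08 in macrophage and endothelial nuclei for the higher genes, and -1.26 and -1.13 for the lower. Most genes past 2-fold between the sexes in the members therefore differed in the same direction in macrophage and endothelial nuclei of the same libraries. The cause was not tested. Without nuclei of more than 10000 UMIs, 204 of the 384 and 154 of the 249 genes were still counted.

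**Figure D5:**
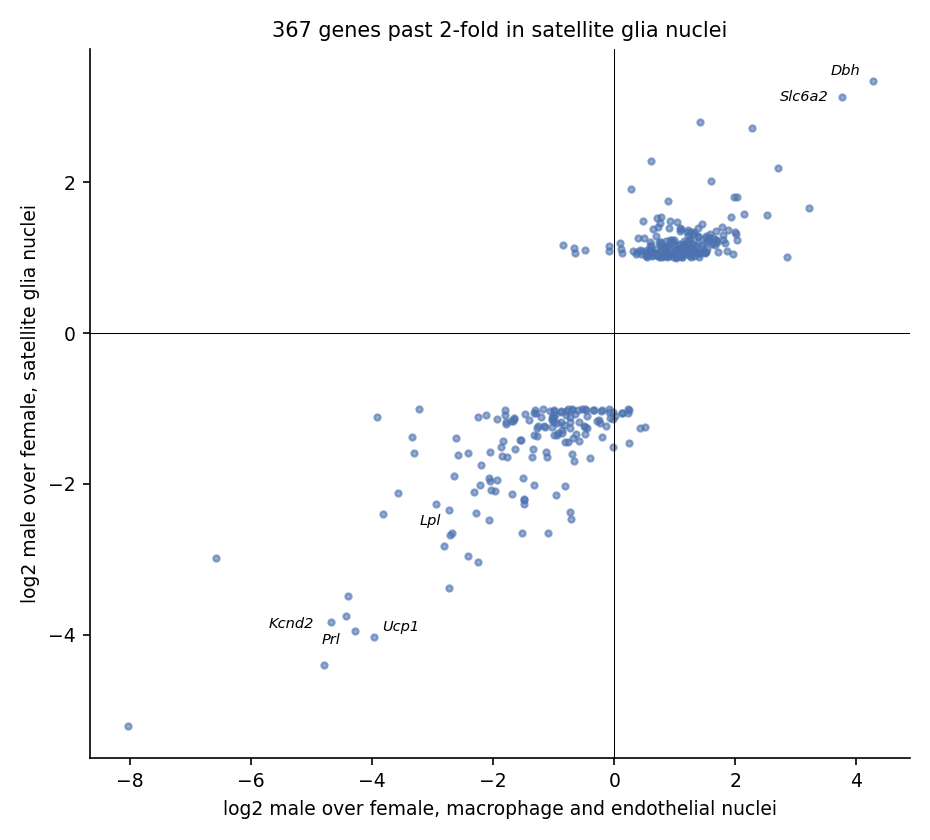
Log2 ratio of the male over the female library in the satellite glia nuclei (vertical axis) and in macrophage and endothelial nuclei (horizontal axis) for 367 genes past 2-fold in the members and measured in both. Most points lie in the lower left and upper right, with *Dbh* at 3.34 in members and 4.27 in the others and *Prl* at -3.96 and -4.28.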

How the data were processed

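The deposited matrix holds whole-number counts of UMIs per gene and nucleus. The authors made it with Cell Ranger 7.1.0 on mm10 with introns included, removed low-quality nuclei and possible doublets with Cell Ranger and DIEM (debris score below 0.5, over 250 genes and over 1000 UMIs), and aggregated the libraries on mapped reads. No source used here states the annotation release or the strand setting. No doublet caller was run and no further nuclei were removed, although 19 female nuclei had fewer than 1000 UMIs. Barcode endings were assigned to libraries because their numbers, 3791 and 4923 nuclei, equal the study's counts for females and males. *Xist* (7.56 and 0 per 10000 UMIs in female and male members) and *Uty* (0 and 1.47) went the same way.

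UMIs were summed per class and library, expressed per 10000 UMIs, and compared as log2 ratios with 0.5 UMIs added to each sum. A gene needed 50 UMIs over the classes and libraries compared, and counted as different at 2-fold in the same direction in both libraries. Between the sexes, each of which has 1 library, 2-fold alone was required. The 12 genes per direction with the largest ratios, without genes of the rule, sex-linked genes and predicted genes, and the members of fixed lists could be named. The members and lists were chosen with earlier results of these data known. Intervals are exact Poisson, Clopper-Pearson or conditional binomial at 95%. Thinning drew 1000 UMIs per nucleus. Coordinates are from GENCODE for GRCm38 and matched 478 of 480 named or listed genes. Python 3.11.15, NumPy 2.4.6, SciPy 1.17.1, pandas 2.3.3 and matplotlib 3.10.9 were used, and the code was tested on simulated data. The 8714 nuclei came to 17435300 female and 27529730 male UMIs. Alternatives are given in the closing section. Results for a few genes are not reported here.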

Additional observations from a re-analysis of the deposited data

Results flagged for a closer look

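Looked at here were 224 genes with enough UMIs in both kinds of nuclei, all of them genes of the rule, listed, sex-linked or named. Of these, 9 had opposite signs in the male over female log2 ratio of the satellite glia nuclei and of the macrophage and endothelial nuclei. Their intervals lay on either side of 0. The difference between the kinds of nuclei was not tested. In the members 7 of the 9 were lower in the male library: *Adam23* at -0.46 beside 0.70 in macrophage and endothelial nuclei, *Cadm1* at -0.22 beside 0.51, *Chl1* at -0.31 beside 0.43, *Gpc5* at -0.31 beside 0.97, *Nrg1* at -0.65 beside 0.78, *Rgs5* at -0.75 beside 1.91 and *Scn7a* at -0.21 beside 1.12. *Adam23*, *Cadm1*, *Chl1* and *Scn7a* belong to the list of 11 genes of non-myelinating Schwann cells. None of the 11 was past 2-fold between the sexes in the members, beside 3.59% higher and 2.33% lower of all genes. The 224 genes hold the lists by choice, so the number from 1 list among the 9 describes no pattern. The medians of that list were -0.22 in members and 0.51 in macrophage and endothelial nuclei. The macrophage genes *F13a1*, at 1.06 beside -0.64, and *Mrc1*, at 1.13 beside -0.67, were higher in the male members. Both are among the genes that chose the macrophage nuclei.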

How the results depend on the processing

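No paired analysis was possible because each sex has 1 library. The limits of 12 per 10000 for the *Col28a1* group, of 15 neuron-list UMIs per 1000, of 10000 UMIs and of 1500 to 3000 UMIs were chosen after seeing the data. Over the alternatives 90 counts stayed within 1.5 times the reported value and 58 did not. With *Slc35f1* left out of the rule there were 319 members, 467 genes higher than in the *Col28a1* group and 110 lower in males, and the split of members could not be made. With at most 2 neuron-list UMIs per 1000, 75 members were left, 73 female and 2 male, and no comparison was run. Thinned to 1000 UMIs, there were 718 members, with 81 genes higher and 53 lower than in the *Col28a1* group, 361 higher than in the other nuclei, 14 and 30 higher and lower between the members with and without the 4 genes, and 139 and 46 between males and females. With means over nuclei, 249 genes were higher than in the *Col28a1* group, 1190 lower than in the other nuclei, 489 higher than in myelinating Schwann nuclei, and 222 and 121 higher and lower in the split. Median-of-ratios factors gave 451 genes higher than in the *Col28a1* group.

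From 20 UMIs a gene, the split gave 269 and 204 and the sexes 607 and 495. From 200 UMIs, counts were 448 and 288 against the *Col28a1* group, 480 lower than in the other nuclei, 188 and 177 against myelinating Schwann nuclei, 31 and 22 in the split and 163 and 86 between the sexes. The female library alone gave 1395 and 837 against the *Col28a1* group, 854 and 1682 against the other nuclei, 553 and 689 against myelinating Schwann nuclei and 644 and 442 in the split. The male library alone gave 1683 and 831, 903 and 1692, 519 and 634, and 918 and 550. With 5 UMIs added, 422 genes were higher than in the *Col28a1* group, 884 higher and 269 lower than in the other nuclei, 10 and 356 in the split, and 244 higher in males. The 12 per 10000 limit gave 150 and 63 and the limit of 10000 UMIs 95 and 120 against the *Col28a1* group, and the band of 1500 to 3000 UMIs 71 higher in the split. Of named genes, *Met* against the *Col28a1* group reversed to -0.15 with *Slc35f1* left out, and *Nr2c2ap* in the split to -0.17 with 5 UMIs added. The cause was not tested. Depth limits genes of few UMIs most, and 1 library per sex leaves no measure of the spread between animals.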
